A study of Mus musculus with 3 samples.

Results

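The genes described here are 9 mouse immediate-early genes out of 17997 genes listed in the deposited tables: Fos, Fosb and Fosl1 (the Fos family), Jun, Junb and Jund (the Jun family), Egr1, Ier2 and Ier3. They were picked by name through their Entrez gene numbers, and each has a row in all 3 libraries. Fosl2, a further Fos gene, is not among them, so the Fos family here means Fos, Fosb and Fosl1 only. Their transcripts were read by RNA sequencing in cultures of 46C, a strain 129 embryonic stem cell line with a fluorescent Sox1 reporter, all grown on gelatin with serum and leukemia inhibitory factor. Lef1 P5 is a culture that had received Lef1 and was collected at passage 5. Lef1 P2 is a culture that had received Lef1 and was collected at passage 2. Empty vector P2 received the vector without the gene and was collected at passage 2. Whether a culture was a clone or a pool, and how long before collection it was last fed or handled, was not given in the sources used here. Each group has n = 1 library, so the conditions were not tested against each other, and the intervals printed are 95% intervals that cover counting error only.

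Immediate-early genes are transcribed within minutes of a signal such as serum, a growth factor or stress, without prior protein synthesis, because the factors that switch them on already sit at their promoters. Fos proteins pair with Jun proteins through a leucine zipper and form the dimeric factor AP-1, while Jun proteins can also pair with each other. Egr1 is a zinc-finger factor induced by the ERK pathway through serum response factor and its ternary complex partners, and the transcripts of many of these genes are short-lived. In embryonic stem cells the same pathway is driven by fibroblast growth factor 4 and pushes cells away from self-renewal.

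The expected counts summed to 9380813 in Lef1 P5, 9170554 in Lef1 P2 and 9225401 in empty vector P2. Lef1 itself was at 214 FPKM in Lef1 P5, 135 FPKM in Lef1 P2 and 1.49 FPKM in empty vector P2, in the order of the labels. FPKM divides the fragments of a gene by its length in kilobases and by library size, and so allows levels to be set side by side between genes. The 8 pluripotency genes fixed as markers were all detected, and summed to 5906 FPKM in Lef1 P5, 5445 FPKM in Lef1 P2 and 5947 FPKM in empty vector P2. Among them Pou5f1 was at 1062 FPKM in Lef1 P5, 704 FPKM in Lef1 P2 and 1135 FPKM in empty vector P2. A list of 9 extraembryonic endoderm markers summed to 369 FPKM in Lef1 P5, 1313 FPKM in Lef1 P2 and 136 FPKM in empty vector P2, and none of the 9 was at 0.

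Promoter sequences of RefSeq (GRCm38.p6) were at hand for 6 of the 9 genes, namely Fos, Fosb, Jun, Junb, Jund and Ier3. The 120 bases before the start site are printed for Fos and Jun, whose levels moved together in the results below, and for Junb, a close relative of Jun whose level did not. Capitals mark a TATA box (TATAAA), a CRE core (TGACG, the first part of the cAMP response element) or the CRE variant TGACNTCA. The Fos stretch is chr12:85473770-85473889 on the plus strand, the Jun stretch chr4:95052223-95052342 on the minus strand and the Junb stretch chr8:84978749-84978868 on the minus strand.
Fos: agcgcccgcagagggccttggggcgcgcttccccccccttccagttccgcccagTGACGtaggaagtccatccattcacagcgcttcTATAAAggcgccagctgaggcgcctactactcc
Jun: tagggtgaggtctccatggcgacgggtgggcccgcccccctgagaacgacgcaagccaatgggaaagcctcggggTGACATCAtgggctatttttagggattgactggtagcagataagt
Junb: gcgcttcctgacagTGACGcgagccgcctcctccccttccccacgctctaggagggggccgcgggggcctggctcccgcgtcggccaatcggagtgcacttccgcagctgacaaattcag

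Each motif was searched on both strands of the window that runs from 250 bases before to 50 bases after the start site. The CRE core, chosen after the sequences were read and contained in a full CRE, was in 3 of the 6 promoters (Fos, Fosb and Junb) and in 20.8% of all 32851 promoters of the table. In Fos it lay at -129 to -125, upstream of the printed stretch, and at -66 to -62, and a TATA box followed at -33 to -28. TATAAA was in 2 of the 6 promoters and in 13.6% of all promoters. In Junb it lay at bases 1 to 6 from the start site, just past the printed stretch. Jun held TGACATCA, a match to TGACNTCA, at -45 to -38, and 8.83% of all promoters hold a match to that pattern, which includes the full CRE. The full CRE (TGACGTCA, in 1.79% of all promoters), the AP-1 site TGANTCA (7.81%) and the CArG box that serum response factor binds (1.63%) had no match in the 6 windows. The sequences TTCAAAG (5.14%) and ATCAAAG (3.73%), which TCF and LEF proteins bind, had none either. A site that these letters miss, or one that lies outside the window, would not be found.

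The 9 genes have few exons. Jun, Junb, Jund and Ier2 have a single exon in the GENCODE transcript matched to their RefSeq entry, Ier3 has 2, Egr1 has 3, and Fos, Fosb and Fosl1 have 4. Across 19282 genes with a matched transcript the median was 7 exons, and 5.88% had a single exon. AU-rich ATTTA pentamers in the 3′ untranslated region, an element known from short-lived transcripts, were denser than the median of 1.10 per kb in 7 of the 9 genes. The density was 8.16 per kb in Ier3, 4.91 in Fos, 4.12 in Junb, 3.24 in Jun, 1.88 in Jund, 1.68 in Egr1 and 1.57 in Fosl1, against 0.466 in Fosb and 0 in Ier2. Fos alone among them held the longer element TTATTTATT, which is found in 6.73% of the genes compared.

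The levels spanned a wide range, and the Fos family sat lowest (the plot of levels by library). Ier2, a nuclear protein gene of unclear mechanism, and Jund, the Jun gene least dependent on growth signals, were the highest in all 3 libraries. In empty vector P2 the order was Ier2 (59.5 FPKM), Jund (32.9), Junb (16.6), Ier3 (11.6), Egr1 (4.6), Jun (3.18), Fos (1.59), Fosl1 (0.99) and Fosb (0.23). Neighbours with overlapping counting intervals in that library were Egr1 and Jun, and Fos and Fosl1. In Lef1 P2 the order was Jund, Ier2, Egr1, Junb, Ier3, Jun, Fos, Fosl1 and Fosb, with overlapping intervals from Egr1 through Junb to Ier3 and between Fosl1 and Fosb. Egr1 thus stood in the third place in Lef1 P2 and in the fifth place in empty vector P2. In Lef1 P5 the order was Ier2, Jund, Ier3, Junb, Jun, Egr1, Fos, Fosl1 and Fosb, and the intervals overlapped between Ier3 and Junb and between Jun and Egr1.

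**Figure D1:**
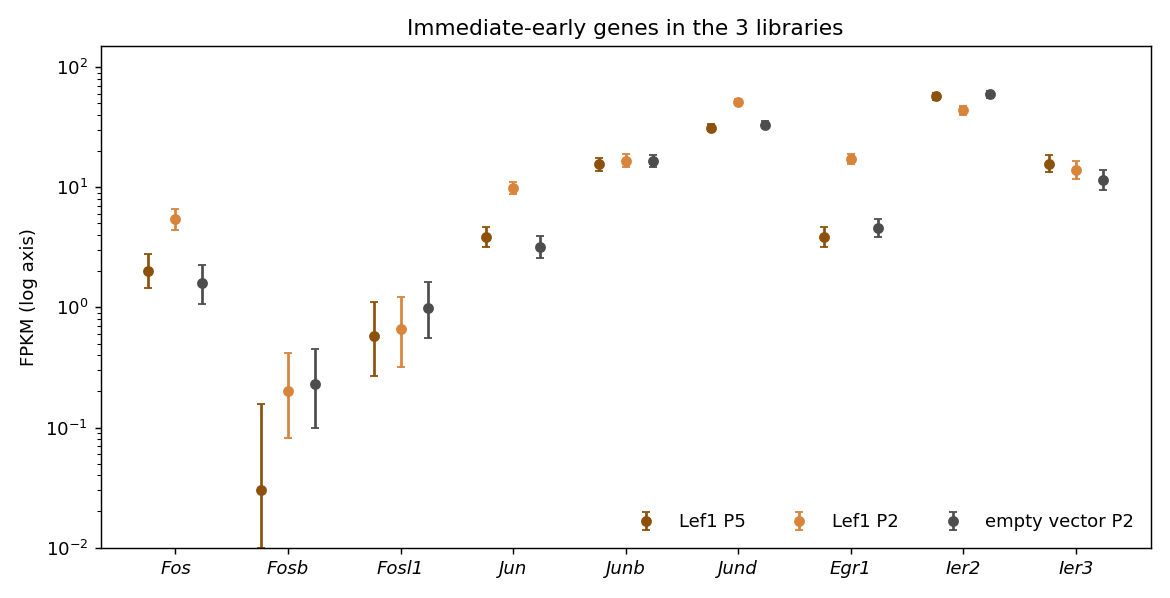
Level of each of the 9 genes in FPKM (log axis) in Lef1 P5, Lef1 P2 and empty vector P2, with 1 library per group. Bars are 95% counting intervals, and the bar of Fosb in Lef1 P5 runs past the lower edge. Fos, Jun and Egr1 stand out as high in Lef1 P2, at 5.43, 9.93 and 17.2 FPKM.

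The rule for a call was a log2((FPKM + 1)/(FPKM + 1)) of 1 or more in size, a 2-fold change. The library with the higher value also had to reach a minimum level of 3 FPKM and 20 reads. The added 1 FPKM understates the change of weakly expressed genes, whereas folds and ratios without log2 are of the FPKM values themselves. Lef1 P2 against empty vector P2 is the comparison at matched passage and asks what accompanies the introduced gene. Fos, Jun and Egr1 were called higher in Lef1 P2, and none of the 9 genes was called lower. Of the 9 genes 7 reached the minimum level, while Fosb and Fosl1 did not. Over all 10651 genes at the minimum level 6.49% were called higher and 1.82% lower (8.31% in either direction). Fos reached the minimum level only through Lef1 P2, the library in which it was higher. The median log2 ratio was 0.26 over all 9 genes and 0.63 over the 7 at the minimum level. It was 0.09 for all genes at that level.

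Fos, the gene of the classic AP-1 partner, was at 5.43 FPKM (4.43 to 6.59, 102 reads) in Lef1 P2 and 1.59 FPKM (1.07 to 2.27, 30 reads) in empty vector P2. That is 3.42-fold (2.26 to 5.33) and a log2 ratio of 1.31. Lef1 P2 is the high library, and its interval does not overlap that of empty vector P2. The other Fos genes of the group rested on few reads. Fosb, which encodes an AP-1 subunit also induced by neuronal activity, had 7 reads (0.20 FPKM) in Lef1 P2 and 8 reads (0.23 FPKM) in empty vector P2. Fosl1, which encodes the later-induced subunit Fra-1, had 10 reads (0.66 FPKM) in Lef1 P2 and 15 reads (0.99 FPKM) in empty vector P2, a ratio of 0.671 (0.269 to 1.60). Neither differed by more than counting error, and the intervals of both ratios are wide. Fos made up 86.3% of the summed FPKM of Fos, Fosb and Fosl1 in Lef1 P2 and 56.6% in empty vector P2. Fosl2 is outside that sum, and counting it would lower both shares.

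The Jun genes differed among themselves. Jun, which encodes the strongest activator of the family, was at 9.93 FPKM (8.81 to 11.2, 285 reads) in Lef1 P2 and 3.18 FPKM (2.57 to 3.91, 92 reads) in empty vector P2, a 3.12-fold difference (2.46 to 3.99). Junb, whose product often restrains Jun, was at 16.7 FPKM (272 reads) in Lef1 P2 and 16.6 FPKM (273 reads) in empty vector P2, a ratio of 1.00 (0.844 to 1.19). Its log2 ratio of 0.01 as deposited became -0.15 with median-of-ratios scaling, -0.14 with TMM scaling (trimmed mean of M values) and -0.13 with quantile scaling. Jund was at 51.7 FPKM (49.0 to 54.5, 1344 reads) in Lef1 P2 and 32.9 FPKM (30.8 to 35.3, 863 reads) in empty vector P2, 1.57-fold (1.44 to 1.71) and under the threshold, with a log2 ratio of 0.63 and a range of 0.48 to 0.67 over the other scalings. Jun and Jund were thus high in Lef1 P2 by different amounts, and Junb was level. In the GENCODE annotation Junb overlaps Prdx2 on the other strand, Jun overlaps the antisense gene Junos, Jund overlaps Gm11175 and Fosl1 overlaps Ccdc85b. Prdx2 was at 232 FPKM in Lef1 P5, 149 FPKM in Lef1 P2 and 182 FPKM in empty vector P2, well above Junb, and Ccdc85b at 5.15, 3.57 and 6.01 FPKM, above Fosl1. Whether counting used strand was not given in the sources used here, so reads from such a partner cannot be told apart from those of the gene.

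Egr1 had the largest ratio of the 9 genes, with an interval that overlaps those of the Fos and Jun ratios. Egr1 was at 17.2 FPKM (15.7 to 18.8, 475 reads) in Lef1 P2 and 4.6 FPKM (3.84 to 5.48, 128 reads) in empty vector P2. That is 3.73-fold (3.06 to 4.57) and a log2 ratio of 1.70, above 98.4% of the genes at the minimum level. Fos lay above 96.7% and Jun above 97.2% of them. Ier2 went the other way, at 43.8 FPKM (40.2 to 47.3, 594 reads) in Lef1 P2 and 59.5 FPKM (55.5 to 63.8, 815 reads) in empty vector P2. Its ratio of 0.733 (0.659 to 0.816) is under the threshold, and its log2 ratio was -0.43 as deposited and between -0.59 and -0.38 over the other scalings. Ier3, which encodes a regulator of cell survival, was at 14.0 FPKM (132 reads) in Lef1 P2 and 11.6 FPKM (110 reads) in empty vector P2, a ratio of 1.21 (0.930 to 1.57) that includes 1.

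By counting error alone, Fos, Jun, Jund and Egr1 had ratios above 1 and Ier2 a ratio below 1. In this comparison such an interval left out 1 on the higher side in 41.0% and on the lower side in 27.2% of all genes at the minimum level, so it sets no gene apart. The share of higher calls over all genes also depended on the scaling, with 691 genes higher and 194 lower as deposited, 502 and 304 with median-of-ratios, 509 and 305 under TMM, and 462 and 314 after quantile scaling. The median over the 12894 genes that reached 1 FPKM was 0.11 as deposited and moved by -0.14 under each of these scalings. Relative to that median the log2 ratios were 1.2 for Fos, 1.27 for Jun and 1.59 for Egr1, and these genes were called higher under all these scalings and with CPM. With a pseudocount of 5 FPKM in place of 1, Fos (0.66) and Jun (0.87) were no longer called, and Egr1 (1.21) was.

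**Figure D2:**
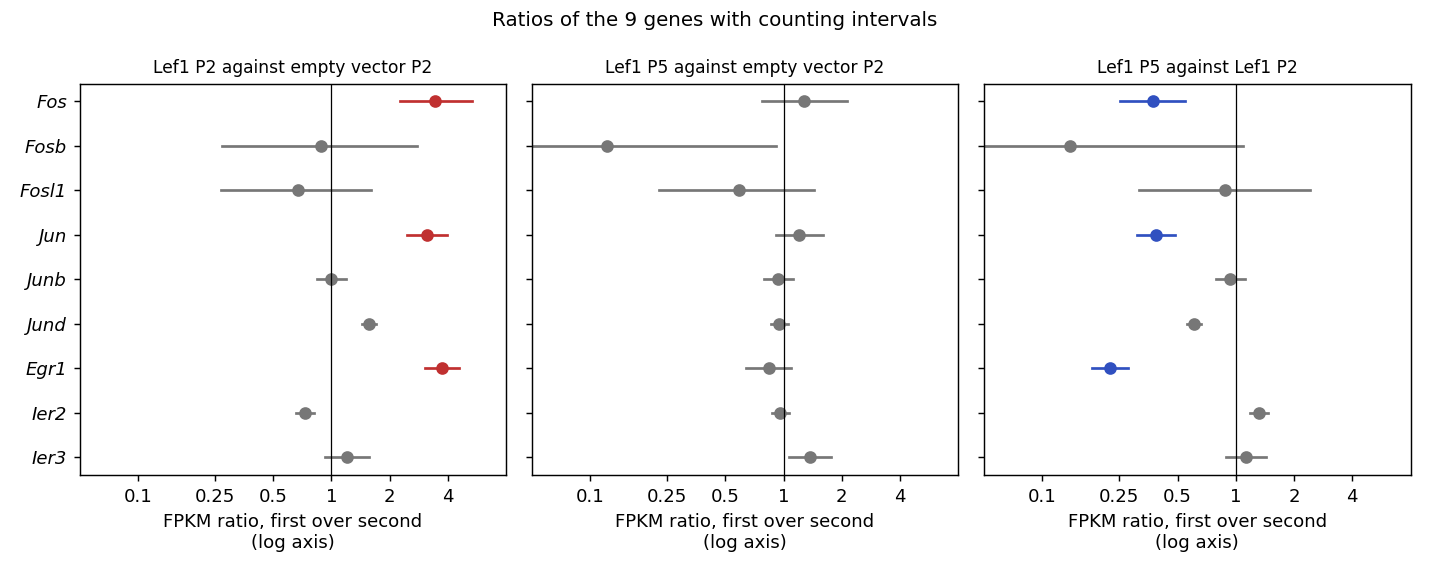
FPKM ratio (log axis) of each gene, first-named library over second, in the 3 comparisons, with 95% counting intervals as lines. Red points were called higher, blue lower and grey not called. The intervals of Fosb in the comparisons of Lef1 P5 against empty vector P2 and against Lef1 P2 run past the left edge. Fos, Jun and Egr1 are at 3.42, 3.12 and 3.73 in Lef1 P2 against empty vector P2 and at 1.28, 1.21 and 0.837 in Lef1 P5 against empty vector P2.

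The endoderm markers were also high in Lef1 P2, where all 9 were called higher, against 6.49% of all genes. Their part in the result was not tested. In Lef1 P5 against empty vector P2, 6 of the 8 at the minimum level were still called higher, against 1.40% of all genes. None of the immediate-early genes was called in that comparison, so the groups part there. In Lef1 P5 against Lef1 P2, 8 of the 9 markers were called lower, against 6.86% of all genes. In a bulk culture, more cells of a type that expresses a gene and more RNA per cell cannot be told apart. Fibroblast and feeder-cell markers were low, with 8 genes summing to 8.20 FPKM in Lef1 P5, 12.8 FPKM in Lef1 P2 and 18.5 FPKM in empty vector P2, mostly from Thy1, and with Postn and Lum listed in no library. Col1a1, the defining collagen of those cells, was at 0.41 FPKM in Lef1 P5, 0.87 FPKM in Lef1 P2 and 1.28 FPKM in empty vector P2. The 6 trophoblast markers summed to 12.5 FPKM in Lef1 P5, 23.4 FPKM in Lef1 P2 and 16.3 FPKM in empty vector P2, with Elf5 listed in no library and Krt7 called higher in Lef1 P2 (7.01 against 1.68 FPKM). Neural markers summed to 24.9, 19.7 and 30.7 FPKM in the same order of libraries. Of these 4 markers 2 reached the minimum level in Lef1 P2 against empty vector P2. Their median log2 ratio was 0.01, against 0.09 for all genes at that level. Nes, which encodes an intermediate filament protein, was called higher (5.5 against 2.2 FPKM), and the other was not called. The defining factor genes Sox1 and Pax6 were at 0.88 and 0.13 FPKM in Lef1 P2.

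Between Lef1 P5 and empty vector P2 both the introduced gene and the passage differ and cannot be told apart, and this comparison shares its control library with the comparison above. None of the 9 genes was called in either direction, against 1.40% higher and 1.28% lower (2.69% in either direction) of the 10121 genes at the minimum level. Only 6 of the 9 reached that level here, since Fos, Fosb and Fosl1 were too low in both libraries to be called. Fos was at 2.02 FPKM (1.44 to 2.77, 39 reads) in Lef1 P5, against 1.59 FPKM in empty vector P2, a ratio of 1.28 (0.774 to 2.13). Jun was at 3.84 FPKM (3.17 to 4.63, 113 reads) in Lef1 P5, a ratio of 1.21 (0.909 to 1.61). Egr1 was at 3.84 FPKM (3.17 to 4.65, 109 reads) in Lef1 P5, a ratio of 0.837 (0.643 to 1.09). For these 3 genes the intervals of Lef1 P5 and empty vector P2 overlap, and the ratios include 1.

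Junb at 15.6 FPKM, Jund at 31.3 FPKM and Ier2 at 57.1 FPKM in Lef1 P5 gave ratios to empty vector P2 of 0.940 (0.790 to 1.12), 0.953 (0.865 to 1.05) and 0.962 (0.871 to 1.06). Ier3 was at 15.8 FPKM (13.4 to 18.5, 153 reads) in Lef1 P5 and 11.6 FPKM (9.46 to 13.9, 110 reads) in empty vector P2. Its ratio of 1.37 (1.06 to 1.76) leaves out 1 on the higher side, as did 23.1% of all genes at the minimum level, against 28.0% on the lower side. Fosb had 1 read in Lef1 P5 and 8 reads in empty vector P2, a ratio of 0.123 (0.00277 to 0.917). Fosl1 had 9 reads in Lef1 P5 and 15 reads in empty vector P2, a ratio of 0.590 (0.228 to 1.44). Summed over the 9 genes, the level was 130.1 FPKM in Lef1 P5, 159.6 FPKM in Lef1 P2 and 131.2 FPKM in empty vector P2.

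Lef1 P5 against Lef1 P2 compares the cultures that had received Lef1 at the later and the earlier passage. Fos, Jun and Egr1 were called lower in Lef1 P5 and none of the 9 genes higher, while 6.86% of the 10593 genes at the minimum level were called lower and 1.88% higher, 8.74% in all. Of the 9 genes 7 reached that level, and Fosb and Fosl1 did not. This comparison shares the Lef1 P2 library with the first, so the result is not independent of it. Egr1 was at 0.224 (0.180 to 0.277) times its Lef1 P2 level in Lef1 P5, Fos at 0.374 (0.252 to 0.546) times and Jun at 0.388 (0.309 to 0.484) times. The log2 ratios were -1.91, -1.09 and -1.18. Set against the all-gene median of -0.17, they were -1.74 for Egr1, -0.92 for Fos and -1.01 for Jun.

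The calls of Fos and Jun in this comparison lie close to the threshold. Fos was not called with median-of-ratios (-0.93), TMM (-0.95) or quantile scaling (-0.76), and Jun was not called with median-of-ratios (-0.998) or quantile scaling (-0.91). Egr1 was called lower under every scaling, at -1.73, -1.75 and -1.69. These scalings moved the all-gene median by 0.18, 0.16 and 0.17, in that order. All genes split into 199 higher and 727 lower as deposited, and into 380 and 450, 362 and 473, and 282 and 410 after scaling. Jund was at 0.608 (0.557 to 0.663) times its Lef1 P2 level in Lef1 P5 and Ier2 at 1.31 (1.18 to 1.46) times, neither past the threshold. Both ratios leave out 1, as did 45.0% of all genes on the lower side and 25.8% on the higher side. Junb (0.938, 0.788 to 1.12) and Ier3 (1.13, 0.892 to 1.44) did not differ by more than counting error, and the direction of Junb turned to higher under TMM (0.08), quantile (0.07) and median-of-ratios scaling (0.10).

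**Figure D3:**
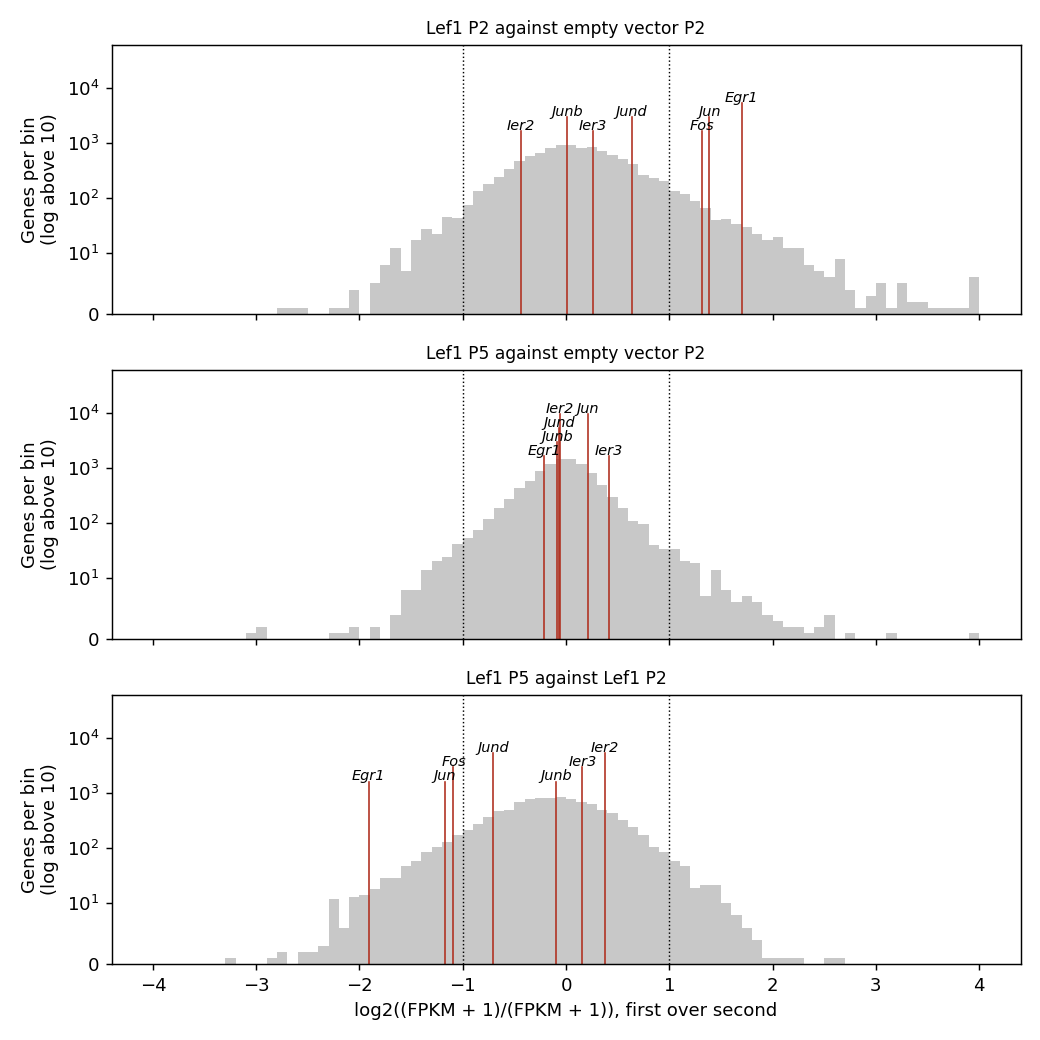
Distribution of log2((FPKM + 1)/(FPKM + 1)) over all genes at the minimum level in each comparison, as genes per bin of 0.1 (log above 10), with the genes of the group that reached that level marked by red lines. Dotted lines are the 2-fold threshold, and the outermost bins hold all genes beyond them. Egr1, at 1.70 and -1.91, lies in the upper tail in Lef1 P2 against empty vector P2 and in the lower tail in Lef1 P5 against Lef1 P2.

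The makeup of the AP-1 transcript pool stayed dominated by Jun genes in all 3 libraries. The Jun family summed to 50.7 FPKM in Lef1 P5, 78.3 FPKM in Lef1 P2 and 52.7 FPKM in empty vector P2. The Fos family summed to 2.63 FPKM in Lef1 P5, 6.29 FPKM in Lef1 P2 and 2.81 FPKM in empty vector P2. Jun-family transcripts were 19.3, 12.4 and 18.8 times those of Fos, Fosb and Fosl1 in these libraries. Fosl2, at 1.2, 1.5 and 0.48 FPKM in the same order, is outside the Fos sum. Counting it would lower each of these ratios and put that of empty vector P2 above that of Lef1 P5. Jund supplied 61.8% of the Jun-family FPKM in Lef1 P5, 66.0% in Lef1 P2 and 62.5% in empty vector P2, and Jun 7.57%, 12.7% and 6.03%. Fos, Jun and Egr1 together were at 9.70 FPKM in Lef1 P5, 32.6 FPKM in Lef1 P2 and 9.37 FPKM in empty vector P2. These genes are not a family but the called members, so a high sum in Lef1 P2 follows from that choice and adds no further result.

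**Figure D4:**
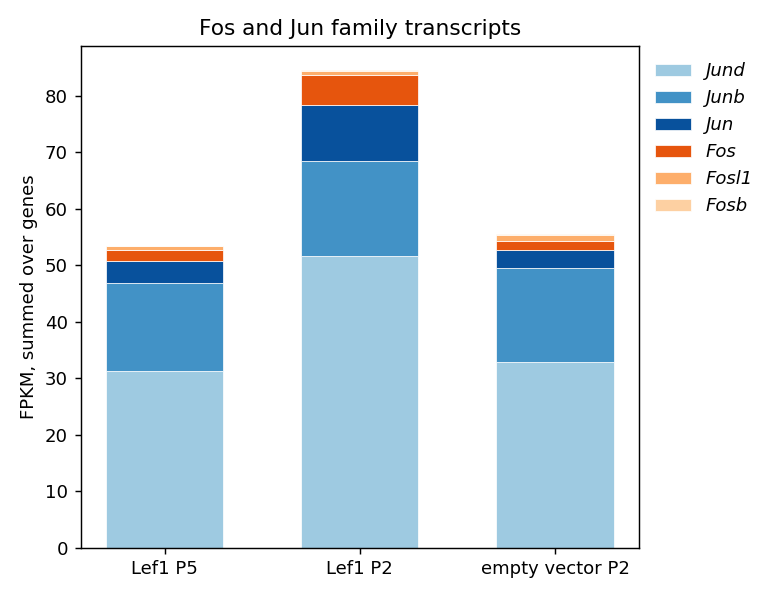
Summed FPKM of the Fos and Jun family genes without Fosl2, stacked by gene, in Lef1 P5, Lef1 P2 and empty vector P2 (1 library each, with no error bar). Jund is the largest part of each bar, and the bar of Lef1 P2 is the tallest, at 84.6 FPKM, against 53.4 FPKM in Lef1 P5 and 55.5 FPKM in empty vector P2.

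Other immediate-early genes were read from lists of 23 further transcription factor genes and 36 further genes of other kinds. Together 46 of these 59 genes reached the minimum level in Lef1 P2 against empty vector P2, of which 5 (10.9%) were called higher and 1 (2.17%) lower, against 6.49% and 1.82% over all genes. Their median log2 ratio was 0.12, against 0.09 for all genes. Those called higher were Klf6, a zinc-finger factor (24.1 against 8.79 FPKM, 2.74-fold), Bhlhe40, a basic helix-loop-helix repressor (28.2 against 11.3 FPKM), Dusp4, a nuclear MAP kinase phosphatase that limits ERK (47.7 against 10.2 FPKM, 4.66-fold), Ccn1, a secreted matricellular protein (27.3 against 6.16 FPKM), and Rhob, a short-lived small GTPase (16.0 against 3.83 FPKM). The growth regulator Myc was called lower, at 4.10 FPKM in Lef1 P2 against 15.4 FPKM in empty vector P2.

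The closest relatives of Egr1 were barely detected. Egr2 had 1, 3 and 1 reads in Lef1 P5, Lef1 P2 and empty vector P2, Egr4 had 1 read in each library, and Egr3 had 2 reads in Lef1 P5 alone. Nr4a1, an orphan nuclear receptor gene induced by the same signals, was at 15.9 FPKM in Lef1 P5, 20.4 FPKM in Lef1 P2 and 19.6 FPKM in empty vector P2 and was not called. Dusp1, a phosphatase gene of the same class, was at 15.8, 21.9 and 11.3 FPKM, Dusp6, the ERK-specific phosphatase gene, at 27.1, 24.9 and 25.3 FPKM, and Zfp36, whose product destabilises AU-rich transcripts, at 8.47, 8.96 and 15.1 FPKM, in the same order of libraries and with no call. Mcl1, Pim3 and Sgk1 had the highest single-library levels of the list of other kinds, at up to 172 FPKM, 182 FPKM and 141 FPKM, and none was called. In Lef1 P5 against empty vector P2, Dusp4 (24.8 against 10.2 FPKM) and Ccn1 (15.4 against 6.16 FPKM) were called higher and Plk2, a polo-like kinase gene, lower (26.1 against 53.5 FPKM). These are 4.35% and 2.17% of 46 genes, against 1.40% and 1.28% of all genes, with a median log2 ratio of -0.05. In Lef1 P5 against Lef1 P2, Myc was called higher and Rhob (4.38 against 16.0 FPKM), Gadd45b (5.88 against 16.2 FPKM) and Maff (6.10 against 13.7 FPKM) lower. These are 2.17% and 6.52% of 46 genes, close to the 1.88% and 6.86% of all genes. The median there was -0.36, against -0.14 for all genes.

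Among 16 other basic leucine zipper genes whose products can pair with Fos or Jun proteins, 8 reached the minimum level. In Lef1 P2 against empty vector P2, Ddit3, which encodes the stress factor CHOP, was called higher (45.0 against 8.55 FPKM), as was Jdp2, a repressor that binds Jun (10.3 against 3.39 FPKM), and 0 were lower, with a median log2 ratio of 0.63. Over all genes at the minimum level 6.49% were called higher and 1.82% lower, with a median of 0.09. Atf4 was at 163 FPKM in Lef1 P2 and 85.6 FPKM in empty vector P2, under the threshold. In Lef1 P5 against empty vector P2 none of the 8 was called, where 2.69% of all genes were called in either direction. In Lef1 P5 against Lef1 P2 Ddit3, Jdp2 and Maff were called lower, 3 of 8, where 6.86% of all genes were. Atf3, often induced with Jun, lay under the minimum level, at 1.05 FPKM in Lef1 P5, 2.5 FPKM in Lef1 P2 and 0.68 FPKM in empty vector P2, and so did Fosl2, at 1.2, 1.5 and 0.48 FPKM in the same order.

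**Figure D5:**
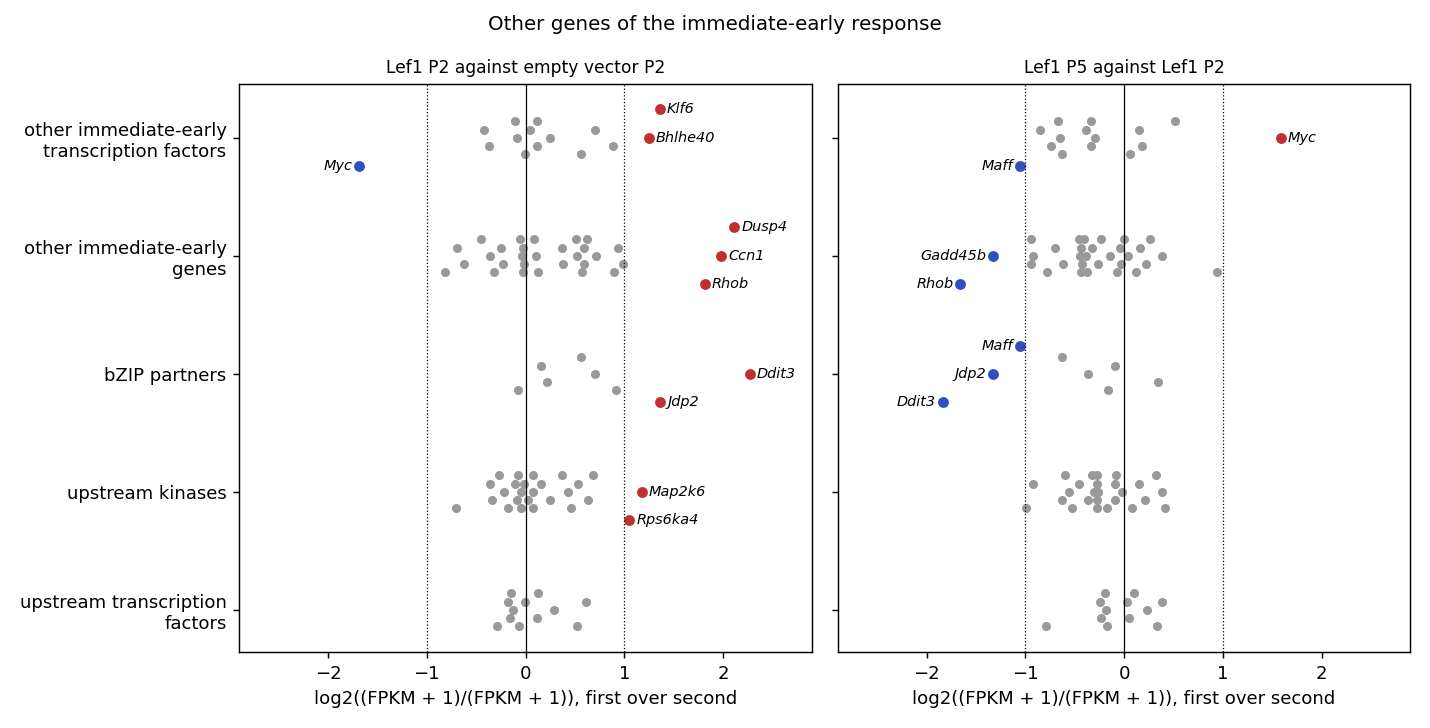
Log2((FPKM + 1)/(FPKM + 1)) of genes at the minimum level in 5 lists around the immediate-early response, for Lef1 P2 against empty vector P2 and for Lef1 P5 against Lef1 P2. Each point is a gene, placed within its row only to keep points apart, with red called higher, blue lower and grey not called. Most genes of each list lie between the dotted 2-fold lines, and in the left panel Myc is on the opposite side from Klf6, Bhlhe40, Dusp4, Ccn1 and Rhob.

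Genes that relay the signal were read from further lists. Of 27 kinase genes of the ERK, JNK, p38 and ribosomal S6 kinase routes, 26 reached the minimum level, and Map2k6, an activator of p38 (8.71 against 3.29 FPKM), and Rps6ka4, a kinase gene of the same route (8.67 against 3.67 FPKM), were called higher in Lef1 P2 against empty vector P2. These 2 of 26 are close to the 6.49% of all genes. The other comparisons gave 0 calls in this list. Of all genes 2.69% were called in Lef1 P5 against empty vector P2 and 8.74% in Lef1 P5 against Lef1 P2. Of 14 genes for the factors that bind immediate-early promoters, such as Srf, Elk1 and Creb1, 12 reached the minimum level in Lef1 P2 against empty vector P2 and 0 were called in any comparison, beside 8.31% of all genes called in either direction in Lef1 P2 against empty vector P2. Srf, the serum response factor gene, was at 14.5 FPKM in Lef1 P5, 14.1 FPKM in Lef1 P2 and 14.8 FPKM in empty vector P2.

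Heat shock genes respond to protein damage, and 9 of them summed to 4877 FPKM in Lef1 P5, 3163 FPKM in Lef1 P2 and 5471 FPKM in empty vector P2. In Lef1 P2 against empty vector P2, 0 were called higher, where 6.49% of all genes were. The small heat shock protein gene Hspb1 was called lower (334 against 828 FPKM), as were 1.82% of all genes. In Lef1 P5 against Lef1 P2, 1 of the 9 was called higher, where 1.88% of all genes were. The inducible genes Hspa1a and Hspa1b were at 3.99 and 6.56 FPKM in Lef1 P2 and 4.44 and 7.63 FPKM in empty vector P2, with counts that were not whole, so their levels are less certain.

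The genes whose 3 values lay closest to those of Fos, each centred on its mean log2(FPKM + 1) over the libraries, were Afmid, Grik3, Zfp30, Sgce and Hdac7, at distances of 0.017 to 0.026 among 10760 genes. Jun was the 25th closest to Fos, at a distance of 0.066, and Egr1 the 1642nd, at 0.58. The genes closest to Egr1 were Grin1, Fabp3, Pold4, Fahd2a and Tmed3, at distances of 0.04 to 0.11. Over only 3 libraries many genes share a pattern, so these names describe likeness and nothing further.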

How the data were processed

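Total RNA of 3 cultures was sequenced, 1 library per group. The tool and build named per the submitters' processing notes are Bowtie 0.12.2 and mm8. Per the file headers, the deposited tables hold an expected count, a length and an FPKM value per Entrez gene. The expected counts were deposited unscaled, and the FPKM values were scaled by the authors to transcript length and library. The counting program was not given in the sources used here. A gene missing from a table was taken as 0. The counts of all 9 genes were whole, and their lengths were the same in each library.

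Symbols came from RefSeq (GRCm38.p6) for 17951 of 17997 Entrez numbers. As the build differs from mm8, coordinates are those of the RefSeq promoter table only. Exons and ATTTA counts came from GENCODE transcripts. Exact Poisson intervals and exact conditional intervals of ratios (scipy 1.17.1) used the rounded expected counts. TMM factors came from edgeR 4.0.16. Calls and intervals were checked on simulated data that held counting error only. The changed genes simulated for the calls had more reads in empty vector P2 than Fos, Jun and Egr1. That check therefore does not cover the calls of these genes, nor variation between cultures. The alternatives were pseudocounts of 0.1 and 5, other minimum levels, 4 scalings, a fold of 1.5 and non-overlapping intervals. The members and lists were chosen with earlier results of these data known. All 9 members are named whatever their values, with up to 4 called genes per list and direction, the 3 most abundant and the 5 closest patterns. Other names were chosen after their values were seen. Reads carry no molecular identifiers, so amplified copies count as separate reads and all intervals cover counting error only.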

Additional observations from a re-analysis of the deposited data

How the results depend on the processing

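In Lef1 P2 against empty vector P2, 3 members were higher as deposited and 1 (Egr1) with a pseudocount of 5. In Lef1 P5 against Lef1 P2, 3 were lower as deposited and 1 (Egr1) with a pseudocount of 5, with median-of-ratios and with quantile scaling. No called member changed direction. Over all genes, Lef1 P2 against empty vector P2 gave 245 higher and 83 lower with a pseudocount of 5, 1225 higher with CPM, and 1864 and 855 at a fold of 1.5. Lef1 P5 against empty vector P2 gave 142 and 130 as deposited, 42 and 25 with a pseudocount of 5, 222 lower with 0.1, 269 and 276 with CPM, and 436 and 602 at a fold of 1.5. Lef1 P5 against Lef1 P2 gave 101 and 180 with a pseudocount of 5, 1275 lower with CPM, and 845 and 2116 at a fold of 1.5. A larger pseudocount shrinks the ratios of weakly expressed genes by construction, and the cause of the other shifts was not tested. Fosb rested on 1 to 8 reads and Fosl1 on 9 to 15, and depth limits what their ratios can show. No paired analysis was possible because each group has 1 library.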

Other observations

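Genes reported elsewhere as AP-1 or Egr1 targets went in several directions. Of 27 such genes 17 reached the minimum level in Lef1 P2 against empty vector P2. The keratin genes Krt8 (61.3 against 8.55 FPKM) and Krt18 (34.8 against 11.2 FPKM) and the tissue factor gene F3 (11.4 against 3.22 FPKM) were called higher, and the cyclin gene Ccnd1 was called lower (3.79 against 14.7 FPKM). Over all genes 6.49% were called higher and 1.82% lower. The median log2 ratio was 0.27, against 0.09 for all genes. In Lef1 P5 against Lef1 P2, Vim (143 against 54.1 FPKM), Nqo1 and Ccnd1 were called higher and Krt8, Krt18 and Itga5 lower. These are 3 and 3 of the 17 genes at the minimum level, where 1.88% and 6.86% of all genes were called. The matrix metalloproteinase genes Mmp3, Mmp10 and Mmp13, classic AP-1 targets in fibroblasts, were listed in no library.

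Of 28 genes for growth factors and receptors that can induce immediate-early genes, 14 reached the minimum level in each comparison with empty vector P2. Only Pdgfra, which is also in the endoderm list, was called higher, in Lef1 P2 (14.7 against 0.91 FPKM) and in Lef1 P5 (7.70 against 0.91 FPKM). Over all genes 6.49% and 1.40% were called higher in these comparisons. In Lef1 P5 against Lef1 P2, 1 of 15 was called lower, where 6.86% of all genes were. Fgf4 was at 55.6 FPKM in Lef1 P5, 64.5 FPKM in Lef1 P2 and 78.2 FPKM in empty vector P2, and its receptor gene Fgfr1 at 17.0, 15.9 and 27.8 FPKM, with no call. Among 11 genes for corepressors and modifiers of Egr and AP-1 proteins 0 were called in any comparison. Of all genes 8.31% were called in either direction in Lef1 P2 against empty vector P2. The shares were 2.69% in Lef1 P5 against empty vector P2 and 8.74% in Lef1 P5 against Lef1 P2. With 11 genes, 0 calls is close to these shares. Nab2, which encodes an Egr1 corepressor, was at 7.0 FPKM in Lef1 P5, 6.94 FPKM in Lef1 P2 and 6.58 FPKM in empty vector P2.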
